A study of Mus musculus with 386 samples.

Results

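Cohesin is the ring-shaped protein complex that holds sister chromatids together and shapes chromosome loops, and 9 genes that encode its core subunits were followed in single mouse germ cells at 3 ages. They were taken by name from the table of counts per gene: the meiotic subunits Rec8, Rad21l, Stag3 and Smc1b, the mitotic subunits Rad21, Stag1, Stag2 and Smc1a, and Smc3, which both forms share. These are 9 of 54658 gene rows, and each row had counts in all 3 groups of cells. Mouse ovaries were dissociated with enzymes and single female germ cells were collected by hand, and 1 Smart-seq2 library, which copies polyadenylated RNA along its length, was made for each. The 362 cells fell into embryonic day 17.5 (E17.5, 22 cells), postnatal day 2.5 (P2.5, all remaining cells) and postnatal day 6.5 (P6.5, 47 cells). The labels give no strain, genotype, treatment, animal or litter, so the cells of an age count together as 1 sample. No difference between ages could therefore be tested, and there is no replicate check. Intervals cover the counting of reads, or of cells for a share of cells, and say nothing of the spread between animals.

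A cohesin ring is built of 2 SMC proteins, SMC3 and an SMC1, closed by a kleisin subunit that carries a STAG protein. In dividing body cells the kleisin is RAD21 and the other parts are SMC1A and STAG1 or STAG2. Germ cells in meiosis also make the kleisins REC8 and RAD21L, the SMC1 variant SMC1B and the STAG variant STAG3. These build the chromosome axes on which homologous chromosomes pair. In mouse oocytes, cohesion is laid down before birth and has to hold through the long arrest that follows, and REC8 is the kleisin known to hold it until separase cuts it.

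Library size was similar across ages while the amount of RNA per cell was not. Gene counts per cell ran from 1016746 to 16125066 at E17.5, from 435560 to 26897828 at P2.5 and from 5714357 to 15799302 at P6.5. For each count of external spike-in RNA, the median cell had 81.3 gene counts at E17.5, 465 at P2.5 and 3203 at P6.5. Every level is therefore given as CPM, the share of a cell's gene counts scaled to 1e6, and also per 1000 spike-in counts. The second scale is sound only where spike-in was added equally to all cells, and the labels do not state how much was added. The labelled cell type was checked against Ddx4, Dazl, Mael, Taf4b and Dppa3, whose summed level in the median cell was 3030 CPM at E17.5, 3549 CPM at P2.5 and 4970 CPM at P6.5. Libraries 8, 10, 15 and 16 of E17.5 stood apart with 226.2 to 656 CPM of this sum, against 1078 to 4746 CPM in the other 18. Of these 4, 1 had 111618.3 CPM of mast cell markers, against at most 13305.2 CPM in the other 18. Granulosa and pregranulosa markers summed to 2071 CPM in library 16, while the other 18 reached from 0.940 to 2177 CPM. Results that rest on E17.5 are therefore also given for those 18 libraries.

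The genes lie on 7 chromosomes. In GENCODE M21, an annotation of the mouse build mm10, the kleisin genes are Rec8 at chr14:55618037-55625395 on the plus strand, Rad21l at chr2:151645404-151668533 on the minus strand and Rad21 at chr15:51962240-51991747 on the minus strand. Smc1b is also on chromosome 15, at chr15:85064689-85131964 on the minus strand. Its mitotic counterpart Smc1a, at chrX:152016428-152062694, and Stag2, at chrX:42149317-42277185, are both on the X chromosome and on the plus strand. Stag3 is at chr5:138280240-138312393, Stag1 at chr9:100597798-100959375 and Smc3 at chr19:53600398-53645833, all on the plus strand. Exons of Stag2 overlap those of 1 antisense gene model, Gm37564, whose reads cannot be told apart without strand. The other 8 genes share no exon bases with another gene.

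The stretches before the start sites of the 4 meiotic genes and of Smc1a are shown because P2.5 levels of 3 meiotic genes lay 2-fold or more below those of E17.5, while both SMC1 genes were within 2-fold when all E17.5 libraries were used. RefSeq windows of 250 bases before the start (build GRCm38.p6) were at hand for 7 of the 9 genes, all but Rad21 and Stag2, and only bases outside GENCODE exons are printed, except for a short site of Stag3. Each is written 5′ to 3′ along the gene, with matches on either strand to CCAAT, to GCGGGAA or to CACGTG in capitals. Motif counts below refer to the whole windows, so some matches lie outside the printed stretches. RefSeq starts can differ from GENCODE starts.
Rec8, at chr14:55617916-55618036 on the plus strand, is the first of them, followed by Rad21l at chr2:151668534-151668783 on the minus strand, the Stag3 site at chr5:138280327-138280356 on the plus strand, Smc1b at chr15:85131965-85132077 on the minus strand and Smc1a at chrX:152016296-152016427 on the plus strand.
Rec8: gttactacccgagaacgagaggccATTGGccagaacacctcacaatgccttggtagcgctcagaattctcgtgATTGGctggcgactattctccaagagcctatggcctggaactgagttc
Rad21l: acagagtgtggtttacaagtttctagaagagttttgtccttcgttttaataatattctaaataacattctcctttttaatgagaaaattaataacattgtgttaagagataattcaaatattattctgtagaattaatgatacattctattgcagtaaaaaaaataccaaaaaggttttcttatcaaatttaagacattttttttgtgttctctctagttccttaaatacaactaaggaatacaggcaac
Stag3: cgcgctggagccCACGTGacaggactgcac
Smc1b: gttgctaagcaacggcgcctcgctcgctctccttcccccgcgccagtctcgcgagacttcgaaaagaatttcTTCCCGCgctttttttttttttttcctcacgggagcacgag
Smc1a: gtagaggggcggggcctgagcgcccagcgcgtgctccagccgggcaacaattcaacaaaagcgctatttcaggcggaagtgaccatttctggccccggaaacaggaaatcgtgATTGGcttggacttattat
The letters CACGTG, the E-box bound by many helix-loop-helix factors, were in the Stag3 window alone among the 7, and in 6.02% of all 32851 mouse windows. GCGGGAA, letters of the kind bound by E2F factors, were in the windows of Smc1b and Stag1 and in 3.82% of all. CCAAT was in 5 of the 7 windows (Rec8, Stag3, Smc1b, Stag1 and Smc1a) and in 33.9% of all. CNCCTCAG was in none of the 7 and in 6.42% of all. All motifs were searched on both strands, none contains another, and the Rad21l stretch held none of them. The Smc1b stretch fills the space to the neighbouring gene Ribc2 on the other strand. Smc1a faces Ribc1 in the same way.

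Transcripts of Rec8, the long-lived meiotic kleisin, were scarce at every age and were lowest at P6.5. Summed over the cells of an age, Rec8 stood at 18.3 CPM at E17.5 (exact Poisson 95% interval 17.57 to 18.99), 1.63 CPM at P2.5 (1.58 to 1.68) and 0.188 CPM at P6.5 (0.149 to 0.235). Per cell it ran from 0 through a median of 2.90 to 204.9 CPM at E17.5, from 0 through a median of 0 to 56.4 CPM at P2.5, and from 0 through a median of 0 to 4.74 CPM at P6.5. Most cells of both later ages thus had no Rec8 count, although the ranges overlapped.

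A Rec8 count was seen in 16 of 22 cells at E17.5 (72.7%, exact 95% interval 49.8 to 89.3%), in 120 cells at P2.5 (40.96%, 35.3 to 46.8%) and in 2 of 47 at P6.5 (4.26%, 0.520 to 14.5%). When every cell was thinned to 400000 counts, the numbers were 11, 61 and 2 cells. At least 10 Rec8 counts were found in 13, 53 and 2 cells. The P6.5 sum is therefore the value of 2 cells, and P6.5 library 35 held 67.5% of it.

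The log2 ratio of Rec8 was −3.49 for P2.5 over E17.5 (95% interval −3.56 to −3.42) and −3.11 for P6.5 over P2.5 (−3.46 to −2.79). Both sizes hang on a few cells. E17.5 library 16, low in germ cell markers, held 60.02% of the E17.5 Rec8 counts, and without it the first ratio was −2.25. With the 18 other libraries it was −2.64. Against E17.5 libraries 1 to 10 alone, of which 4 had any Rec8 count, it was −0.38. Against libraries 11 to 22, which all had a count, it was −4.27. Without P6.5 library 35 the second ratio was −4.70.

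Rad21l, the other meiotic kleisin, which acts in early prophase, stood well below its E17.5 level at P2.5 and had nearly the same sum at P6.5. Its sums were 43.4 CPM at E17.5, 4.99 CPM at P2.5 and 4.66 CPM at P6.5. Cells ran from 3.22 through a median of 22.8 to 271.99 CPM at E17.5, from 0 through 1.41 to 52.8 CPM at P2.5 and from 0 through 3.53 to 17.8 CPM at P6.5. At P2.5, 96.2% of cells (93.4 to 98.1%) were below the E17.5 median. Every E17.5 cell had a count, against 220 P2.5 cells (75.1%) and 42 of 47 P6.5 cells (89.4%).

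The log2 ratio of Rad21l was −3.12 for P2.5 over E17.5 (−3.17 to −3.08) and −0.10 for P6.5 over P2.5 (−0.17 to −0.03). The first was −3.56 with the 18 E17.5 libraries. The second was above 0 under both other scalings tried, and the cell median was higher at P6.5, so it has no firm direction. E17.5 library 21 held 31.95% of the E17.5 counts, and without it the first ratio was −2.64. No Rec8 and no Rad21l count was found in 0 of 22 E17.5 cells (up to 15.4%), in 56 P2.5 cells (19.1%, 14.8 to 24.1%) and in 5 of 47 P6.5 cells (10.6%, 3.55 to 23.1%).

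Stag3, the STAG protein of all meiotic rings, was the member whose cells were most clearly apart between E17.5 and P2.5. It stood at 536 CPM at E17.5, 76.7 CPM at P2.5 and 37.8 CPM at P6.5. Cells ran from 46.98 through a median of 466 to 2122 CPM at E17.5, from 0.178 through 67.4 to 445 CPM at P2.5 and from 3.95 through 35.4 to 195.6 CPM at P6.5. All P2.5 cells lay below the E17.5 median, and 44 of 47 P6.5 cells (93.6%, 82.5 to 98.7%) lay below the P2.5 median. The lowest E17.5 cells, 4 libraries low in germ cell markers with 46.98 to 94.1 CPM, were within the P2.5 range, and the lowest of the other 18 had 219.2 CPM.

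The log2 ratio of Stag3 was −2.80 for P2.5 over E17.5 (−2.82 to −2.79) and −1.02 for P6.5 over P2.5 (−1.05 to −0.998). With the 18 E17.5 libraries the first was −3.25. In contrast to Rec8 and Rad21l, Stag3 had counts in every cell of all 3 ages, as did Smc1b, Rad21, Smc1a, Stag1 and Smc3.

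Smc1b, the meiotic SMC1, kept a high level after birth. It stood at 828 CPM at E17.5, 541 CPM at P2.5 and 458 CPM at P6.5. Cells ran from 68.8 through a median of 848 to 2584 CPM at E17.5, from 115.7 through 516 to 1200 CPM at P2.5 and from 290 through 451 to 871 CPM at P6.5. The groups overlapped throughout, and the coefficient of variation over cells was 0.672 at E17.5, 0.297 at P2.5 and 0.207 at P6.5, the lowest of the 9 genes at the last 2 ages. The log2 ratio was −0.61 for P2.5 over E17.5 (−0.62 to −0.61) and −0.24 for P6.5 over P2.5 (−0.25 to −0.23). With the 18 E17.5 libraries the first was −1.06, past the 2-fold mark. The second changed sign under median-of-ratios scaling, so it has no firm direction.

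**Figure D1:**
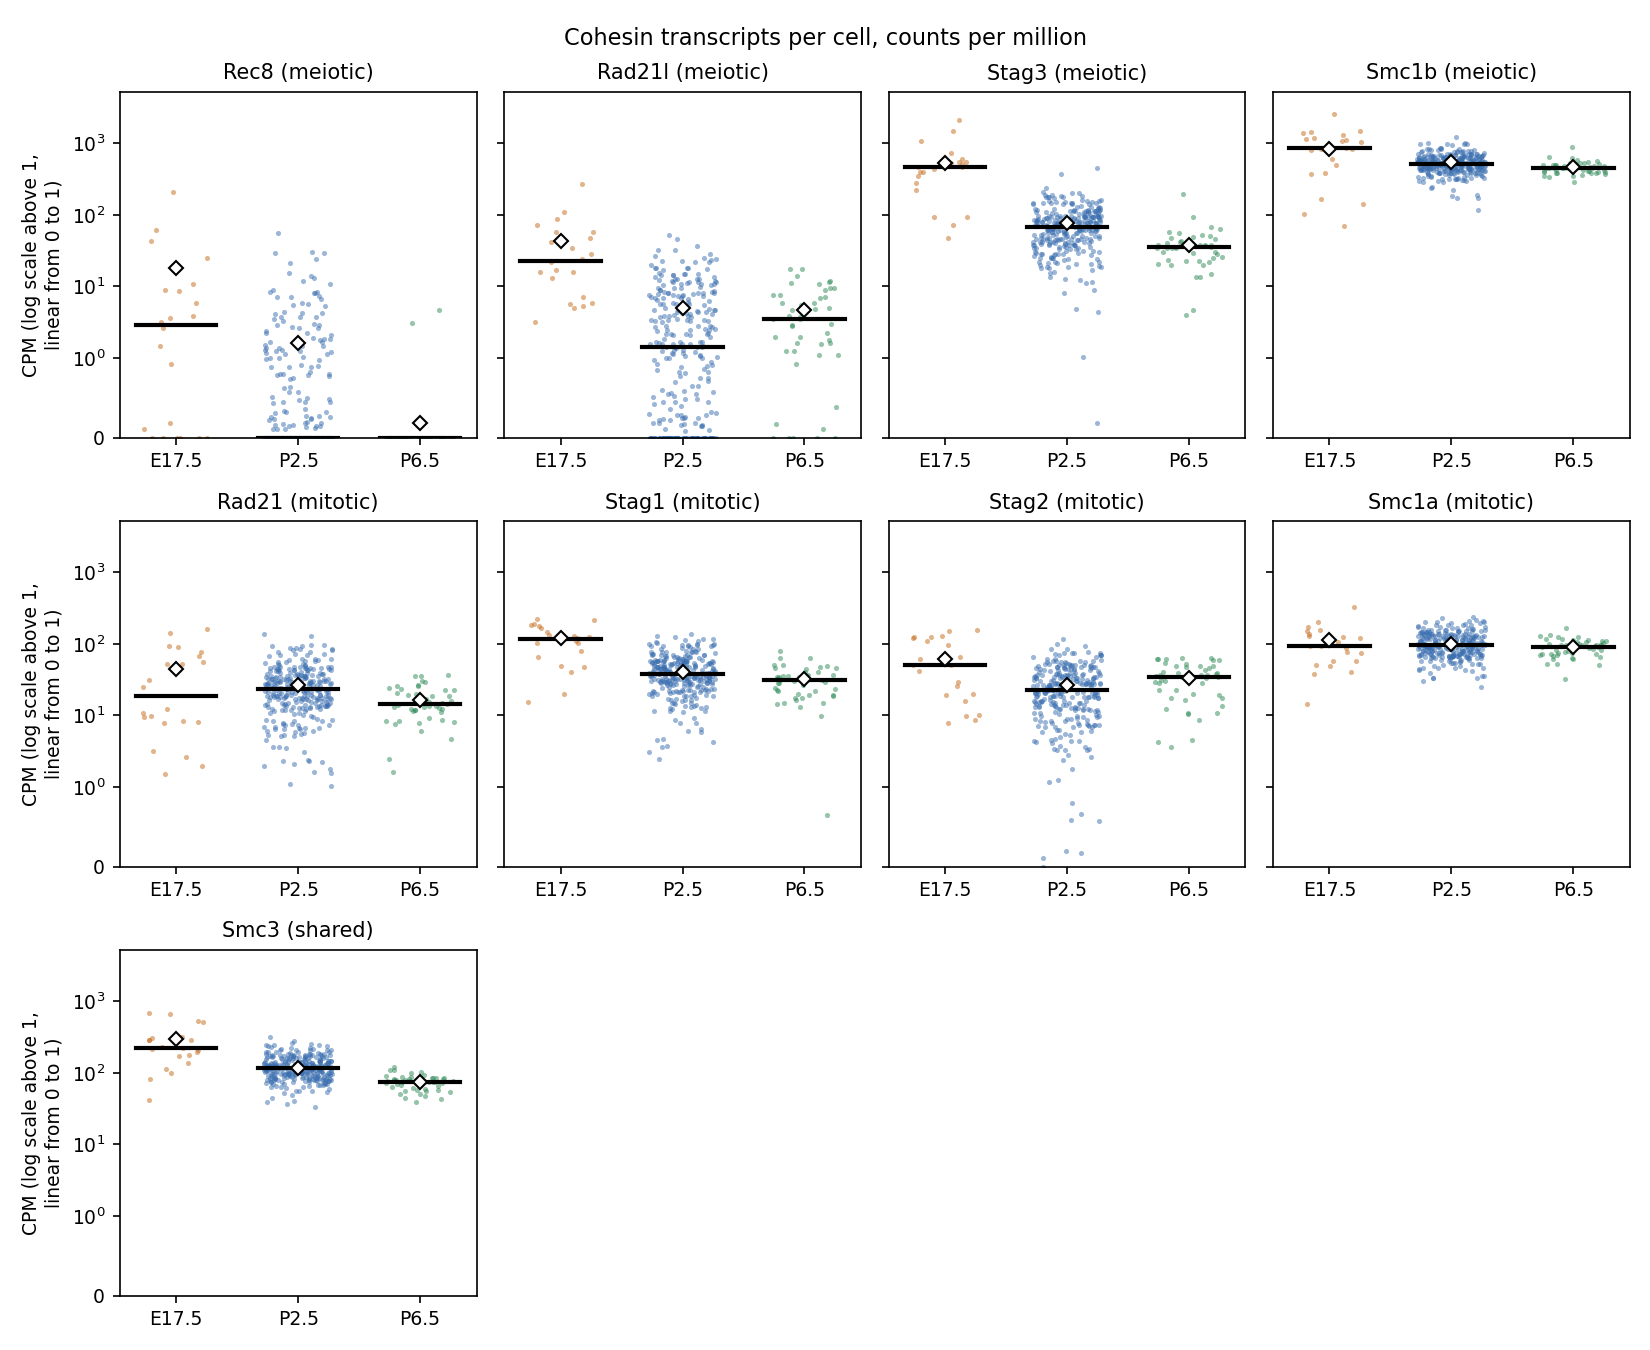
Level of each cohesin gene in every cell, in CPM on a log axis that is linear between 0 and 1, by age. Points are cells (22 at E17.5, 47 at P6.5 and the rest at P2.5), bars are medians over cells and diamonds are levels of the summed counts. Stag3 cells at P2.5 all lie below the E17.5 median of 466 CPM, Smc1b stays high at all 3 ages, and most later cells have no Rec8.

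Rad21, the mitotic kleisin, was lower in sum at each later age when all E17.5 libraries were used, within 2-fold at both steps. It stood at 44.8 CPM at E17.5, 26.5 CPM at P2.5 and 16.6 CPM at P6.5. Cells ran from 1.53 through a median of 18.6 to 159.1 CPM at E17.5, from 1.03 through 23.5 to 137.6 CPM at P2.5 and from 1.61 through 14.6 to 36.9 CPM at P6.5. The P2.5 sum was below that of E17.5 while the P2.5 median was above it, and the ranges overlapped almost fully. The log2 ratio of sums was −0.76 for P2.5 over E17.5 (−0.79 to −0.72), −0.46 with the 18 E17.5 libraries and 0.34 for the medians over cells. Against E17.5 libraries 11 to 22 it was −1.28, past 2-fold, and against libraries 1 to 10 it was 0.37. For P6.5 over P2.5 it was −0.67 (−0.71 to −0.64).

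Smc1a, the SMC1 of dividing cells, was nearly level. It stood at 113.1 CPM at E17.5, 99.01 CPM at P2.5 and 89.9 CPM at P6.5. Cells ran from 14.3 through a median of 93.2 to 325 CPM at E17.5, from 24.6 through 95.4 to 238.6 CPM at P2.5 and from 32.2 through 90.5 to 167.5 CPM at P6.5. The log2 ratio was −0.19 for P2.5 over E17.5 (−0.21 to −0.17) and 0.14 with the 18 E17.5 libraries, and it changed sign with the scaling too. For P6.5 over P2.5 it was −0.14 (−0.15 to −0.12), and above 0 under both other scalings.

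The 2 mitotic STAG genes were both lower at P2.5 and parted afterwards. Stag1, whose protein acts mainly at telomeres and chromosome arms, stood at 119.9 CPM at E17.5, 40.4 CPM at P2.5 and 31.9 CPM at P6.5. Its cells had medians of 115.6, 37.9 and 30.7 CPM at the 3 ages. The log2 ratio was −1.57 for P2.5 over E17.5 (−1.59 to −1.55; −1.62 with the 18 libraries) and −0.34 for P6.5 over P2.5 (−0.37 to −0.31). Stag2, the usual centromeric form in body cells, stood at 60.4 CPM at E17.5, 26.6 CPM at P2.5 and 33.2 CPM at P6.5. Its cells had medians of 50.04, 22.6 and 34.3 CPM, with 0 CPM in the lowest P2.5 cell. The log2 ratio was −1.18 for P2.5 over E17.5 (−1.22 to −1.15; −1.07 with the 18 libraries) and 0.32 for P6.5 over P2.5 (0.29 to 0.35), but −0.04 on mean FPKM. Counts of Stag2 per count of Stag1 were 0.504 at E17.5, 0.658 at P2.5 and 1.04 at P6.5.

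Smc3, the subunit of every cohesin ring, was lower at each later age. It stood at 297.8 CPM at E17.5, 116.5 CPM at P2.5 and 74.5 CPM at P6.5, with cell medians of 224.7, 115.2 and 75.2 CPM. The log2 ratio was −1.35 for P2.5 over E17.5 (−1.37 to −1.34; −1.497 with the 18 libraries), and 96.6% of P2.5 cells were below the E17.5 median. For P6.5 over P2.5 it was −0.65 (−0.66 to −0.63), and 46 of 47 P6.5 cells (97.9%) were below the P2.5 median.

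A CPM at least 2-fold lower at P2.5, compared with E17.5, was found for 3 of 4 meiotic members (Rec8, Rad21l and Stag3), for 2 of 4 mitotic members (Stag1 and Stag2) and for Smc3, and no member was 2-fold higher. Of 17421 genes measured, 32.4% were lower by this rule and 22.6% higher. The median log2 ratio was −2.90 over the meiotic members and −0.96 over the mitotic members, beside −0.26 over all genes. With the 18 E17.5 libraries all 4 meiotic and 2 of 4 mitotic members were lower, beside 32.7% of all genes. The count of 2 in 4 mitotic members is close to the share among all genes, and Stag2 stayed within 2-fold under both other scalings. Smc3 lies near the 2-fold mark. Its ratio was −0.99 under TMM scaling, −0.9975 on mean FPKM and −0.96 for medians over cells, but −1.13 under median-of-ratios scaling.

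At P6.5 compared with P2.5, Rec8 and Stag3 were at least 2-fold lower in CPM and the other 7 members were not, and no member was 2-fold higher. Of 14643 genes measured, 9.3% were lower by this rule and 6.9% higher. The Stag3 value lies at the 2-fold mark and was within it under both other scalings. The median log2 ratio was −0.63 over the meiotic members and −0.24 over the mitotic members, beside −0.18 over all genes.

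Per spike-in count the picture at P2.5 split by subunit. Counts per 1000 spike-in counts of Rec8 were 0.720 at P2.5, against 1.53 at E17.5 (log2 ratio −1.08). Those of Rad21l were 2.20 at P2.5, against 3.63 at E17.5 (−0.72), and those of Stag3 were 33.9 at P2.5, against 44.7 at E17.5 (−0.40). Those of Smc1b were 239.2 at P2.5, against 69.2 at E17.5 (1.79). These 4 values thus fall on both sides of 0, with Smc1b alone higher. The Stag3 ratio on this scale was −0.02 for medians over cells and −0.66 with the 18 E17.5 libraries. Of P2.5 cells, 49.8% were above the E17.5 median of Stag3 per spike-in count, so a lower Stag3 level is not settled on this scale.

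All 4 mitotic members and Smc3 were higher per spike-in count at P2.5. Smc1a had 43.8 per 1000 at P2.5, against 9.44 at E17.5 (log2 ratio 2.21), and Rad21 had 11.7 at P2.5, against 3.74 at E17.5 (1.65). The log2 ratio was 1.22 for Stag2, 1.05 for Smc3 and 0.84 for Stag1. After adding 0.5 CPM to both levels, 1 of 4 meiotic members, 3 of 4 mitotic members and Smc3 were at least 2-fold higher and none was 2-fold lower, while 75.5% of all genes were higher and 4.16% lower. The median over all genes was 2.15, and of the members only Smc1a lay above it in sums over all E17.5 libraries. The ratio of Rad21 on this scale was 3.22 for medians over cells and 2.83 against E17.5 libraries 1 to 10. Rec8 had a log2 ratio of −0.05 on this scale with the 18 E17.5 libraries and 2.08 against E17.5 libraries 1 to 10 alone, so its direction is not settled.

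At P6.5 compared with P2.5, 8 of the 9 members were higher per spike-in count, by 3.76-fold for Stag3 to 9.53-fold for Stag2. Stag3 had 127.4 per 1000 at P6.5, against 33.9 at P2.5, and Smc1b had 1545 at P6.5, against 239.2 at P2.5 (6.46-fold). Rad21l had 15.7 at P6.5, against 2.20 at P2.5 (7.13-fold). Rec8 had 0.635 at P6.5, against 0.720 at P2.5, a log2 ratio of −0.18 whose interval of −0.53 to 0.14 spans 0. Rec8 counts as 2-fold higher here only because 0.5 CPM is added before the call. By the 2-fold rule 99.1% of all genes were higher and 0.0137% lower, so a higher value is not particular to these genes.

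**Figure D2:**
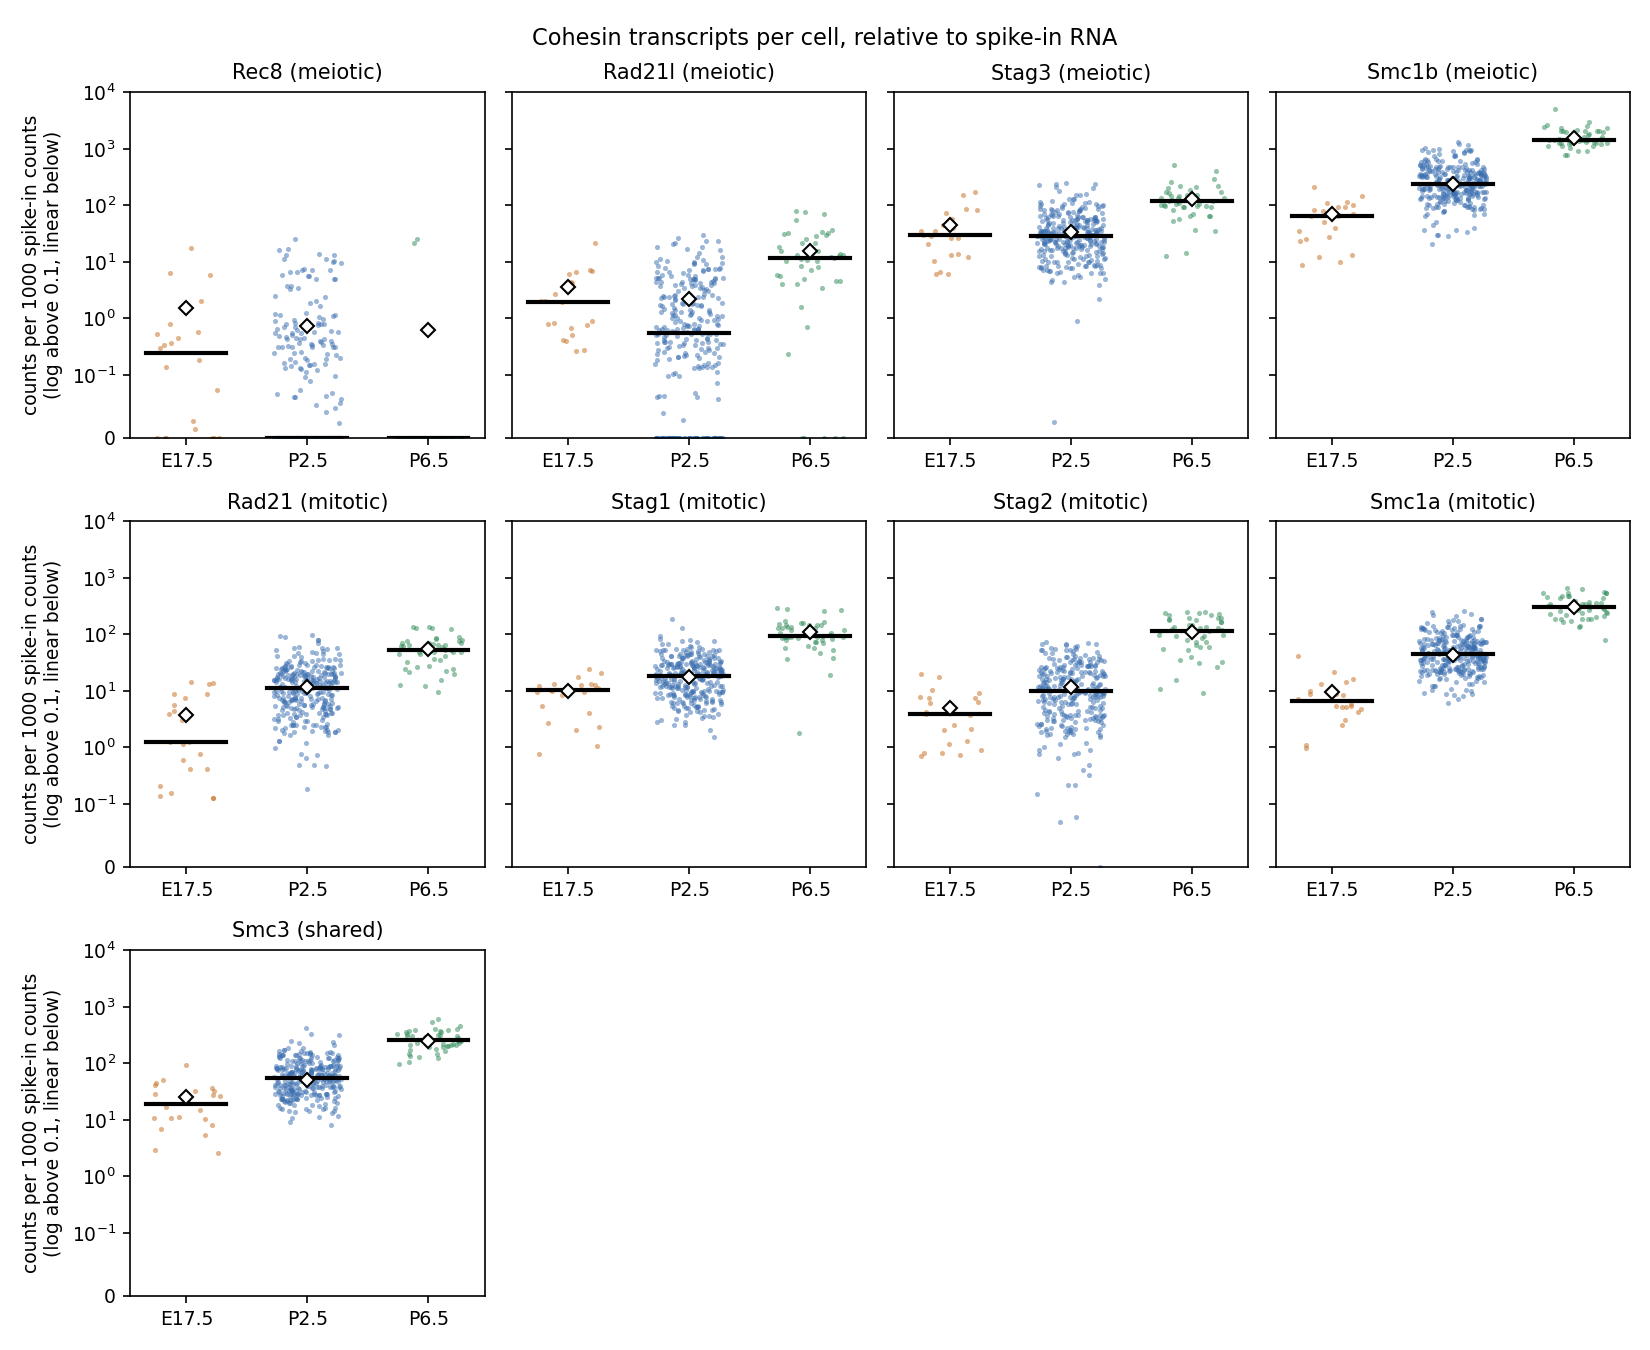
Level of each cohesin gene in every cell, as counts per 1000 spike-in counts on a log axis that is linear below 0.1, by age. Points are cells, bars are medians over cells and diamonds are levels of the summed counts. Over the 3 ages in order, Smc1b has 69.2, 239.2 and 1545 per 1000, while Rec8 has 1.53, 0.720 and 0.635.

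**Figure D3:**
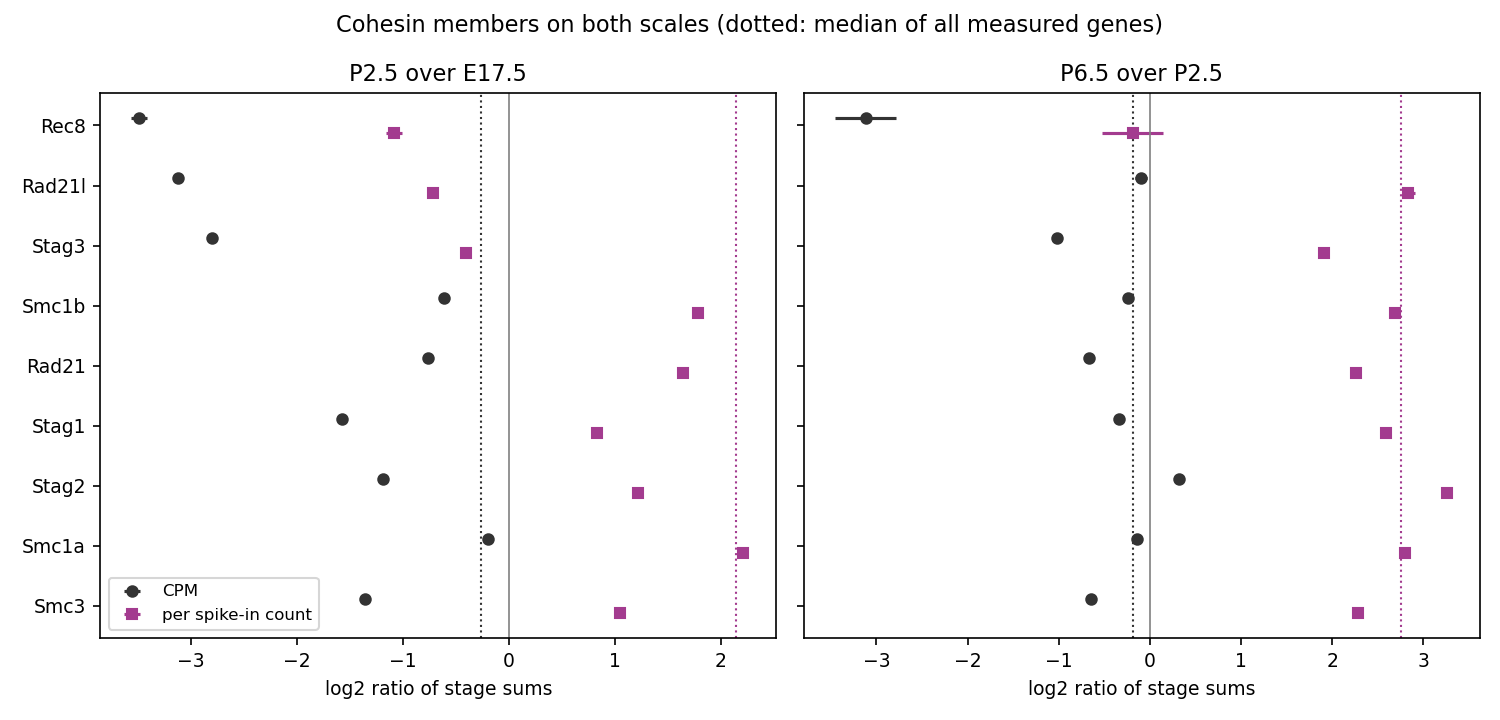
Log2 ratio of the summed counts for each cohesin gene, P2.5 over E17.5 on the left and P6.5 over P2.5 on the right, as CPM (circles) and per spike-in count (squares). Bars are 95% intervals of counting and dotted lines are medians of all measured genes. On the left Rec8, Rad21l and Stag3 lie below 0 on both scales, while the other 6 genes change side with the scale.

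Within a cell, the ratio of a meiotic to a mitotic paralogue needs no scaling. The count ratios given here and below are of counts summed over the cells of an age, so cells with more counts weigh more. In the median cell Rec8 made up 9.59% of Rec8 and Rad21 counts at E17.5 and 0% at P2.5 and P6.5. Summed counts of Rec8 per count of Rad21 were 0.408 at E17.5, 0.0614 at P2.5 and 0.0113 at P6.5. The log2 change was −2.73 for P2.5 minus E17.5 (−2.81 to −2.65) and −2.44 for P6.5 minus P2.5 (−2.77 to −2.11). With the 18 E17.5 libraries the first change was −2.18, and against E17.5 libraries 1 to 10 alone it was −0.75. The change between P2.5 and P6.5 hangs on 2 P6.5 cells: without P6.5 library 35 it was −4.00, and without cells that hold markers of another cell type it was −1.72.

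Counts of both meiotic kleisins together per count of Rad21 were 1.38 at E17.5, 0.2496 at P2.5 and 0.292 at P6.5. In the median cell they made up 55.7% of kleisin counts at E17.5, 10.96% at P2.5 and 20.97% at P6.5. At P2.5, 270 cells (92.2%, 88.4 to 94.96%) were below the E17.5 median share. The log2 change was −2.47 for P2.5 minus E17.5 (−2.92 with the 18 libraries) and 0.23 for P6.5 minus P2.5. The mitotic form made up most kleisin counts at both ages after birth, with single cells on either side at all ages. These counts are not adjusted for gene length. On mean FPKM, the deposited values per transcript length, the ratio was 2.63 at E17.5, 0.389 at P2.5 and 0.597 at P6.5. The meiotic kleisins exceeded Rad21 on FPKM in 17 of 22 cells at E17.5, 61 cells at P2.5 and 9 of 47 at P6.5.

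The Stag3 share of the STAG class was lower at each later age. Counts of Stag3 per count of Stag1 and Stag2 together were 2.97 at E17.5, 1.15 at P2.5 and 0.580 at P6.5. These counts are not adjusted for gene length. On mean FPKM, the deposited values per transcript length, the same ratio was 4.30 at E17.5, 1.77 at P2.5 and 1.15 at P6.5. Stag3 exceeded Stag1 and Stag2 together on FPKM in 24 of 47 P6.5 cells. The Stag3 share ran from 16.7 through a median of 68.4 to 98.1% of STAG counts at E17.5, from 0.128 through 50.8 to 86.2% at P2.5 and from 4.16 through 33.7 to 77.3% at P6.5. The share was below the E17.5 median in 83.3% of P2.5 cells (78.5 to 87.4%) and below the P2.5 median in 38 of 47 P6.5 cells (80.9%, 66.7 to 90.9%). The log2 change was −1.38 for P2.5 minus E17.5 (−1.40 to −1.35) and −0.98 for P6.5 minus P2.5 (−1.01 to −0.95). The first was −1.83 with the 18 E17.5 libraries and −0.95 without E17.5 library 6, which held 27.5% of the Stag3 counts.

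The SMC1 class stayed with the meiotic form. Counts of Smc1b per count of Smc1a were 7.32 at E17.5, 5.47 at P2.5 and 5.09 at P6.5. The Smc1b share ran from 17.5 through a median of 88.6 to 98.9% of SMC1 counts at E17.5, from 43.3 through 84.4 to 96.7% at P2.5 and from 74.7 through 83.8 to 92.2% at P6.5. Cells of the 3 ages overlapped, and the spread narrowed with age. The log2 change was −0.42 for P2.5 minus E17.5 (−0.45 to −0.40) and −0.10 for P6.5 minus P2.5 (−0.12 to −0.08). With the 18 E17.5 libraries the ratio at E17.5 was 12.5 and the first change was −1.20.

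**Figure D4:**
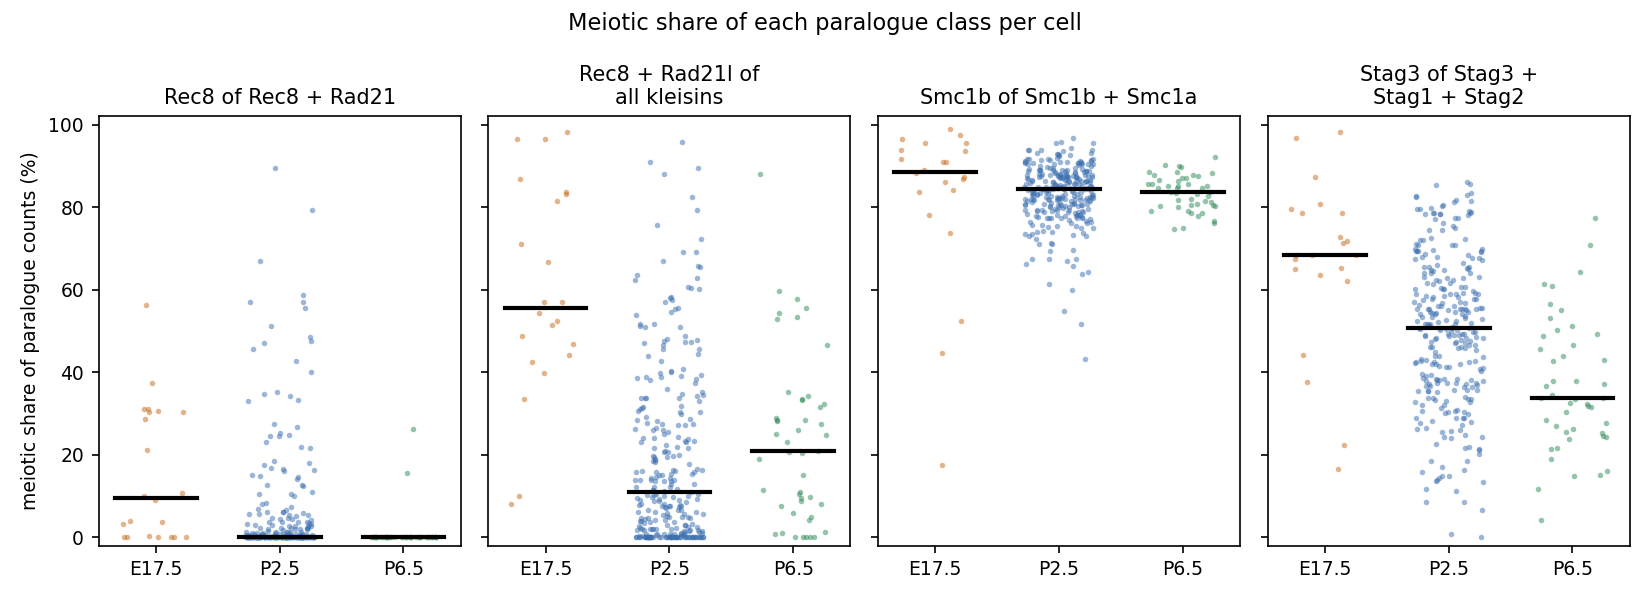
Meiotic share of the counts of each paralogue class in every cell, in percent, by age. Points are cells and bars are medians. Counts are not adjusted for gene length. Over the 3 ages in order, the Smc1b share keeps medians of 88.6, 84.4 and 83.8%, while the Stag3 share has medians of 68.4, 50.8 and 33.7%.

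Over all 4 meiotic and 4 mitotic members, meiotic counts per mitotic count were 4.22 at E17.5, 3.24 at P2.5 and 2.92 at P6.5, with Smc1b giving most of the meiotic counts at each age. The log2 change was −0.38 for P2.5 minus E17.5 (−0.39 to −0.36) and −0.15 for P6.5 minus P2.5 (−0.17 to −0.14). The first change was −0.96 with the 18 E17.5 libraries and −0.05 without E17.5 library 6, so its size is not settled. These counts too are not adjusted for gene length. On mean FPKM the ratio was 4.57 at E17.5, 2.91 at P2.5 and 2.89 at P6.5. Stag3 was then above Smc1b at E17.5 (197.7 against 167.3 FPKM).

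Levels of different genes were compared as FPKM, the deposited values per transcript length. At E17.5 Stag3 had a mean of 197.7 FPKM (cells from 26.2 to 746) and Smc1b 167.3 FPKM (cells from 14.2 to 470.2), and the quartile ranges of these 2 overlapped. Smc3 followed with 43.6 FPKM, below the quartile range of both. Then came Smc1a (29.8), Stag1 (28.1), Rad21l (18.2), Stag2 (17.9), Rad21 (9.60) and Rec8 (7.10 FPKM), each overlapping with the gene before it.

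At P2.5 Smc1b stood alone at 103.5 ± 35.99 FPKM (SD over cells), and the quartile range of Stag3, at 34.4 FPKM, lay below it. Smc1a (22.1) and Smc3 (21.8 FPKM) were close together, then Stag1 (10.6), Stag2 (8.83) and Rad21 (6.74 FPKM). Rad21l had 1.94 and Rec8 0.679 FPKM. At P6.5 Smc1b had 93.5 ± 19.7 FPKM (SD over 47 cells), against 19.6 for Smc1a and 18.4 for Stag3, whose quartile ranges overlapped. Smc3 (13.8), Stag2 (8.59) and Stag1 (7.42) followed, then Rad21 (3.902), Rad21l (2.26) and Rec8 (0.0764 FPKM). Rec8 was thus the lowest of the 9 at all 3 ages, and Smc1b exceeded Smc1a per length in 19 of 22 cells at E17.5, 99.7% of cells at P2.5 and 47 of 47 at P6.5.

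The E17.5 libraries low in germ cell markers were low in Stag3 and Smc1b but not in the mitotic members. Smc1b had 68.8 to 164.2 CPM in these 4 libraries, against 371 to 2584 CPM in the other 18, and the groups did not overlap. Rad21l had 3.22 to 15.9 CPM in the 4, against 4.95 to 271.99 CPM in the other 18. Smc1a had 50.1 to 325 CPM in the 4, against 14.3 to 200.6 CPM in the other 18. The 4 libraries held 42.8% of the Rad21 and 44.2% of the Smc1a counts of E17.5, but 4.42% of the Stag3 and 4.54% of the Smc1b counts. Their part in the differences between ages shows in the values for the other 18 libraries given above.

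**Figure D5:**
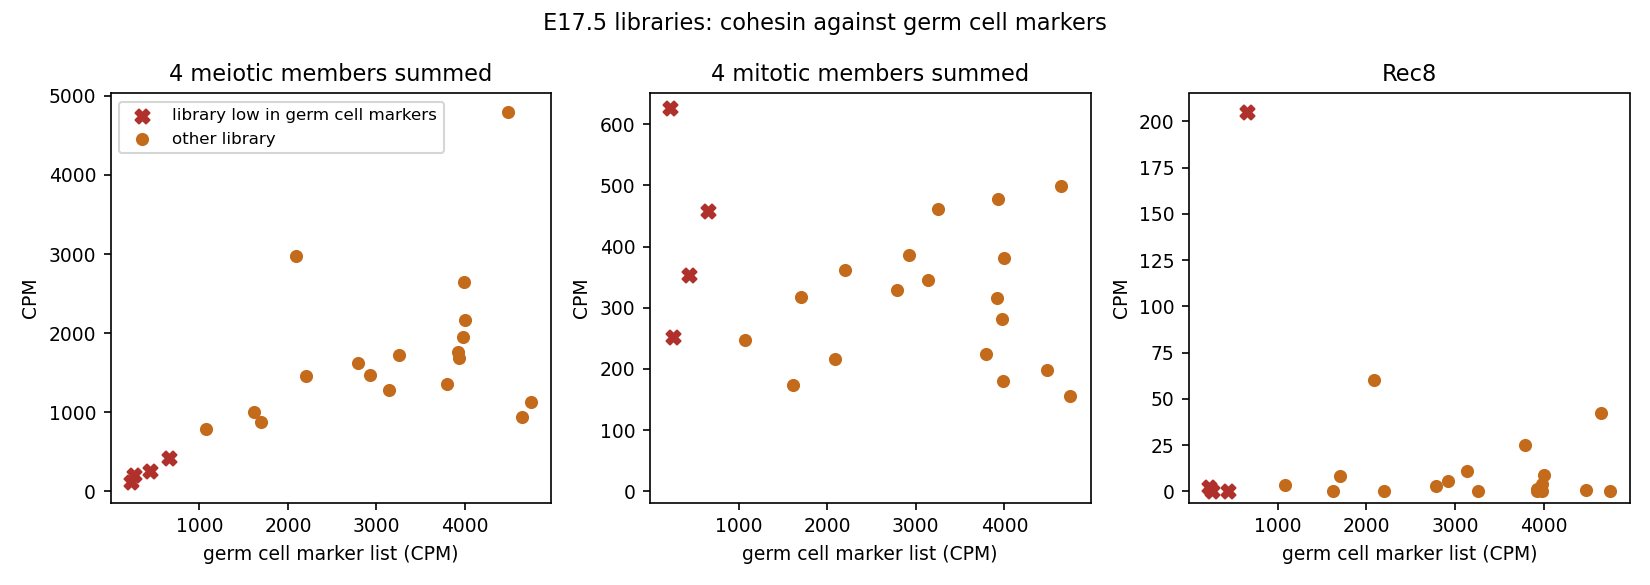
Cohesin levels against the summed level of 5 germ cell markers in the 22 E17.5 libraries, both in CPM, for the 4 meiotic members summed, the 4 mitotic members summed and Rec8. Crosses are the 4 libraries low in germ cell markers and circles the other 18. The crosses are lowest for the meiotic sum and lie within or above the circles for the mitotic sum, and 1 cross, library 16, holds the highest Rec8 level at 204.9 CPM.

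In sums over cells, each list of other cell types' markers was highest at E17.5. The median cell, however, had 7.81 CPM of stroma markers at E17.5, 11.02 CPM at P2.5 and 0.256 CPM at P6.5, and 3.37 CPM of immune markers at E17.5, 8.74 CPM at P2.5 and 11.45 CPM at P6.5. Erythroid markers summed to 1593 CPM at E17.5, 38.7 CPM at P2.5 and 1.94 CPM at P6.5. After thinning to 100000 counts, at least 10 counts, taken over all lists of other cell types together with erythroid left out, were found in 22 of 22 cells at E17.5, 80 cells at P2.5 and 4 of 47 at P6.5. The mitotic members are expressed in most body cells, and the part of such RNA in the mitotic E17.5 levels was not tested in the 18 libraries.

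Within P2.5 the members varied largely apart from each other. Over these cells, Pearson correlations of log2(CPM + 1) between the 36 pairs of members ran from −0.16 for Smc1b and Rad21 to 0.17 for Stag1 and Smc3. At P6.5, over 47 cells, the highest was 0.50 for Stag3 and Smc1b and the lowest −0.34 for Rad21 and Smc3. Cells share their library depth and preparation, and these values are descriptions only.

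Between P2.5 cells of high and low RNA content most members had similar summed CPM, and the sums of Rec8, Rad21l and Stag1 differed most. The 73 cells with the most gene counts per spike-in count (median 1008) had 556 CPM of Smc1b, against 502 CPM in the 73 cells with the fewest (median 232.9). Stag3 had 71.1 CPM in the cells with the most and 81.2 CPM in those with the fewest, and Rec8 had 2.64 CPM with the most and 1.22 CPM with the fewest. Rad21l lay the other way, with 3.86 CPM with the most and 5.99 CPM with the fewest. Stag1 did so too, with 35.37 CPM with the most and 45.97 CPM with the fewest. The median Rec8 level was 0 CPM in both sets of cells, so the Rec8 sums rest on a minority of cells. Over all P2.5 cells, the Pearson r with gene counts per spike-in count was strongest for Stag1, at −0.2095. It was −0.1407 for Rad21l and 0.1019 for Rec8. Per 1000 spike-in counts Stag3 had 73.4 with the most and 17.3 with the fewest, and the cells were split on this same spike-in measure.

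Among 7017 well-detected genes, those with the pattern over P2.5 cells most like Smc1b were Ube2d3 (Pearson r 0.61 over the P2.5 cells, −0.14 over 47 P6.5 cells), Eprs (0.60 and 0.22), Nmt2 (0.58 and 0.31), Hspd1 (0.58 and 0.39) and Psmc1 (0.57 and 0.21). For Stag3 the highest values were weaker, with Zfp512b (0.33 and 0.22), Mga (0.32 and 0.31), Firre (0.30 and 0.34) and Tdrd9 (0.30 and 0.37). The synaptonemal complex gene Sycp1 followed (0.29 and 0.49). For Smc3 they were Selenok (0.46 and 0.14), Polr2d (0.46 and −0.02), Smarce1 (0.46 and 0.09), Srp9 (0.45 and 0.14) and Rbx1 (0.45 and −0.13). For Rad21 they were Khdc4 (0.31 and 0.44), Tnrc6b (0.30 and 0.18), Lars2 (0.30 and 0.24), Ccni (0.28 and 0.21) and Ubp1 (0.28 and −0.25). For Rec8 they were Dcbld1 (0.32 and −0.125), Gas6 (0.31 and 0.10), Garnl3 (0.31 and 0.03), Serpinb6a (0.29 and 0.14) and Maged2 (0.28 and 0.06). All of these genes were chosen on their P2.5 values.

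Of 37 genes that load, modify, protect or cut cohesin or build related complexes, 34 were measured between E17.5 and P2.5. Of these, 5 were at least 2-fold lower in CPM at P2.5 and 5 higher, with a median log2 ratio of −0.33, beside 32.4% lower and 22.6% higher of all genes. The same shares of all genes stand beside the P2.5 counts of the single lists below, which are calls in CPM. Per spike-in count 31 of the 34 were at least 2-fold higher and 0 lower, beside 75.5% higher and 4.16% lower of all genes. Both HORMA-domain genes of the chromosome axis were lower in CPM. Hormad1 had 62.9 CPM at P2.5, against 568 CPM at E17.5 (log2 ratio −3.18), and Hormad2 had 14.8 CPM at P2.5, against 55.4 CPM at E17.5 (−1.90). Per spike-in count the log2 ratio was −0.77 for Hormad1 and 0.50 for Hormad2.

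Among 9 genes of cohesin protection and cleavage, 8 were measured, 2 were higher at P2.5 and 0 lower. Pttg1, which encodes securin, the inhibitor of separase, had 188.9 CPM at P2.5, against 30.9 CPM at E17.5 (log2 ratio 2.61). Ppp2r5a, a subunit of the phosphatase PP2A, had 150.2 CPM at P2.5, against 42.2 CPM at E17.5 (1.83). Meikin, a meiotic kinetochore protein, had 2.74 CPM at P2.5, against 5.78 CPM at E17.5 (−1.08), within 2-fold after the prior.

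The acetylation and establishment list went both ways, with 1 of 4 genes lower and 1 higher at P2.5. Cdca5, which encodes sororin, the keeper of cohesion, had 194.2 CPM at P2.5, against 48.2 CPM at E17.5 (log2 ratio 2.01). The cohesin acetyltransferase gene Esco2 had 107.3 CPM at P2.5, against 263.9 CPM at E17.5 (−1.30, and 1.11 per spike-in count). E17.5 library 6 held 27.8% of the E17.5 Esco2 counts. Esco2 then had 222.5 CPM at P6.5, against 107.3 CPM at P2.5 (1.05), the only gene of these lists higher in CPM by the 2-fold rule in that comparison. Its cell medians were 133.8 CPM at E17.5, 96.5 CPM at P2.5 and 216.8 CPM at P6.5. Of the 5 loading and release genes, 1 was lower at P2.5, Pds5b, with 19.5 CPM at P2.5, against 46.1 CPM at E17.5 (−1.24). The log2 ratio of Pds5b per spike-in count was 1.16.

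In the related SMC complexes, 1 of 8 condensin genes was lower at P2.5 and none higher. It was Ncapd2, with 18.3 CPM at P2.5, against 128.6 CPM at E17.5 (log2 ratio −2.81). Of 6 measured SMC5/6 genes, 2 were higher at P2.5, Nsmce1 with 139.4 CPM, against 56.1 CPM at E17.5 (1.31), and Nsmce3 with 79.6 CPM, against 36.2 CPM at E17.5 (1.14). The boundary factor gene Ctcf, 1 of 2 in its list to be measured, had 21.7 CPM at P2.5, against 30.9 CPM at E17.5 (−0.51). With the 18 E17.5 libraries 10 of 35 genes of these lists were lower (28.6%) and 5 higher (14.3%), beside 32.7% lower and 23.1% higher of all genes. The added lower ones were Mau2, Meikin, Ncapd3, Smc6 and Ctcfl.

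In CPM, 2 of the 34 genes were at least 2-fold lower and 1 higher at P6.5 compared with P2.5, beside 9.3% and 6.9% of all genes. Wapl, which opens the ring to release cohesin, had 27.9 CPM at P6.5, against 65.8 CPM at P2.5 (log2 ratio −1.24), and all 47 P6.5 cells were below the P2.5 median. Hormad1 had 23.2 CPM at P6.5, against 62.9 CPM at P2.5 (−1.44). The spike-in scale gave the opposite direction for both genes. Per 1000 spike-in counts Wapl had 94.2 at P6.5, against 29.07 at P2.5, and 46 of 47 P6.5 cells lay above the P2.5 median. Hormad1 had 78.29 at P6.5, against 27.82 at P2.5, on this scale.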

How the data were processed

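386 Smart-seq2 libraries of hand-picked female mouse germ cells were read from both ends, as the labels' protocols state. Whole-number counts and FPKM values per gene were deposited by the authors, with 1 column for each library. Per the submitters' processing notes, STAR 2.7.10b, HTSeq 0.13.5, RSEM 1.3.3 and build mm10 were used. The sources used here do not give which of them made which table, the annotation or the strand setting. The tables hold 54658 gene rows and 92 rows of ERCC spike-in RNA, which stayed out of library sizes and made up 1.18% of counts at E17.5, 0.226% at P2.5 and 0.0296% at P6.5. Gene rows of close paralogues could share reads.

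The cohesin members, pathway lists and marker lists, and the split of E17.5 at library 10, were chosen with earlier results of these data known. At P2.5, 24 library pairs differed by no more than sampling noise (median chi-square per gene 0.686 to 1.03, against 2.31 or more in the other close pairs tested). Each was summed as 1 cell, which left 293 P2.5 cells from 317 libraries and 362 cells in all. They may be repeat runs of 1 library. Counts were summed over the cells of an age and scaled to CPM or divided by summed spike-in counts. A gene was measured with at least 1 CPM in either age and a count in 3 cells. Calls are at 2-fold after adding 0.5 CPM, and ratios of named genes are without it. Intervals are exact (Poisson, conditional Poisson, Clopper-Pearson; 95%). The reads carry no molecular identifiers and PCR copies are not independent, so intervals cover counting error only. No test was made. Doublets were not called in these hand-picked cells, and marker lists were used instead. An E17.5 library was called low in germ cell markers under 0.25 of its stage median. All 9 members are named, list genes are named where 2-fold apart in either comparison, and Meikin, Ctcf, Mau2, Ncapd3, Smc6, Ctcfl, Ribc1 and Ribc2 were named after their values were seen. Genes most like a member needed at least 20 CPM at P2.5 and a count in 50% of P2.5 cells. TMM factors came from edgeR 4.0.16 and median-of-ratios factors from DESeq2 1.42.0 in R 4.3.3, and all else from Python 3.11.15 with pandas 2.3.3 and scipy 1.17.1. The ratio, interval and call steps were run on simulated counts with 200 changed genes, drawn with Poisson noise alone. That simulation holds no spread between cells and no PCR copies. It checks the arithmetic of these steps and not how well the intervals fit these data.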

Additional observations from a re-analysis of the deposited data

How the results depend on the processing

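No paired analysis was possible because the library numbers only name cells of 1 age and the results come from no test. The count of meiotic members lower at P2.5, compared with E17.5, was 3 and stayed between 2 (E17.5 libraries 1 to 10 alone) and 4 (18 E17.5 libraries) over 13 alternatives. That of mitotic members was 2, and 1 under TMM scaling, median-of-ratios scaling, mean FPKM and E17.5 libraries 1 to 10, and 3 with libraries 11 to 22. The count of meiotic members higher per spike-in count at P2.5 was 1, and 2 with E17.5 libraries 1 to 10. The count of meiotic members lower at P6.5 than at P2.5 was 2, and 1 under TMM, median-of-ratios, the mean over cells and the mean over libraries with pairs kept apart, and 0 for mean FPKM and the median over cells.

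The STAG change for P2.5 minus E17.5 (−1.38) was −1.28 on mean FPKM, −1.48 for means over cells or libraries, −1.34 for medians, −1.83 with the 18 libraries, −1.71 with library 19 also left out of these 18, −1.72 for libraries 1 to 10, −1.13 for 11 to 22 and −1.501 to −0.95 with each library left out. The change over all paralogues (−0.38) was −0.65, −0.56 or −0.57, −0.57, −0.96, −0.90, −0.70, −0.13 and −0.56 to −0.0548 under the same settings in that order. For P6.5 minus P2.5, the STAG change (−0.98) was −0.62 on mean FPKM, −0.86 for means, −1.03 for medians, −1.16 without cells holding other markers and −1.09 to −0.93 with each library left out. The change over all paralogues (−0.15) was −0.0085, −0.0615 or −0.0469, −0.18, −0.21 and −0.19 to −0.14. Leaving out cells with other markers gave no value at E17.5, where every cell held some. The SMC1 change for P6.5 minus P2.5 turned positive, at 0.03, on mean FPKM. The kleisin change for P2.5 minus E17.5 ran from −2.99 to −0.75 over all alternatives.

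Rec8 per spike-in count, P2.5 over E17.5, turned from −1.08 to 2.08 with E17.5 libraries 1 to 10 and to 0.33 when the 4 low libraries and library 19 were left out. The last setting and the count without a prior were chosen after seeing the data. Over all alternatives, 18 CPM ratios of members took the other sign, and the cause was not tested. The scaling shifts the median of all genes for P2.5 over E17.5 from −0.26 to 0.09 (TMM) or −0.05 (median-of-ratios), and for P6.5 over P2.5 from −0.18 to 0.04 or 0.14. Without a filter on low values 14.5% of genes were lower and 10.7% higher at P2.5, and 3.52% and 2.45% at P6.5; with medians over cells these were 18.5% and 37.01%, and 5.75% and 13.9%. The Rec8 value at P6.5 rests on 77 counts in 2 cells. Depth limits the numbers of cells with a count: after thinning to 400000 counts, Rad21l was seen in 140 instead of 220 cells at P2.5 and Rec8 in 61 instead of 120.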

Other observations

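The genes that face the SMC1 paralogues across a short shared stretch were looked at after their values were seen. Ribc1, a gene of ciliary microtubules that faces Smc1a, stood at 44.4 CPM at E17.5, 58.99 CPM at P2.5 and 68.2 CPM at P6.5. Its log2 ratio was 0.41 for P2.5 over E17.5, beside −0.19 for Smc1a. Ribc2, which faces Smc1b, stood at 7.72 CPM at E17.5, 1.962 CPM at P2.5 and 2.02 CPM at P6.5. Its log2 ratio was −1.98 for P2.5 over E17.5, beside −0.61 for Smc1b, and it was within 2-fold afterwards. Per spike-in count the log2 ratios for P2.5 over E17.5 were 2.81 for Ribc1 and 0.43 for Ribc2.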
